A study of Mus musculus with 18 samples.

Results

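The 42 genes described here encode proteins of the sarcomere's framework: the Z-disc, the M-band, the thin filament, the giant scaffold proteins, and the factors that assemble them. They were chosen by name from the 55450 gene IDs of the deposited count table, as a list of gene symbols drawn up with earlier results of these data known. Every 1 of the 42 was found and passed the filter on low counts. Myoz3 passed it only through the myotubes of the clones described below, being at 3 counts or fewer in every other library. Its calls as higher in those myotubes, counted below, therefore carry no weight. By role they divide into 2 giant scaffolds, 14 Z-disc genes, 5 genes of nascent myofibrils, Xin repeat proteins and intermediate filaments, 3 muscle ankyrin repeat genes, 7 M-band or thick filament binding genes, 9 thin filament genes and 2 assembly factors.

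As background, a sarcomere runs from one Z-disc to the next. Alpha-actinin cross-links actin thin filaments at the Z-disc, titin spans from the Z-disc to the M-band, nebulin lies along the thin filament, and myomesin and obscurin-like proteins tie thick filaments together at the M-band. In cultured muscle cells many sarcomere genes are switched on as cells leave the division cycle, and premyofibrils mature into striated myofibrils during and after fusion, whereas desmin, filamin C, the PDZ-LIM genes and tropomyosin genes are also active in dividing myoblasts.

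Polyadenylated RNA was sequenced from C2C12, a mouse myoblast line that fuses into multinucleated myotubes after serum is lowered. There were 6 groups of 3 libraries (A, B and C): 3 lines, each as myoblasts in growth medium with 10% fetal bovine serum and as myotubes on day 3 in 2% horse serum. The control was a sorted population that had received the empty pX458 vector (Cas9 with EGFP), and each of the other 2 lines was a clone raised from a single EGFP-sorted cell after editing with 2 guide RNAs directed at the Meg3 promoter. The labels call clone 2-4 an overexpressor and clone 2-7 a knockout of the Dlk1-Dio3 gene cluster, and the clones are named here by those labels. All 3 lines therefore went through transfection and sorting, genotype and clone cannot be told apart, and the labels do not say whether the 3 samples of a group came from separate cultures, so p-values measure only the spread between these samples, which may be technical.

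Totals ran from 41544358 to 79140702 counts per library. Meg3 itself had 0 counts in all 6 control and all 6 knockout libraries and from 5222 to 7763 in the 6 overexpressor libraries, so its counts give no check of the knockout label against the control. The 5 genes of dividing cells summed to between 1140 and 1196 CPM (counts-per-million values on the scaled library size) in control myoblasts, 967 to 1043 in knockout myoblasts and 86.5 to 116 in control myotubes. Markers of differentiated muscle (4 genes) summed to 172 to 250 CPM in control, 311 to 488 in overexpressor and 4766 to 5999 in knockout myoblasts. Sums of the 4 fibroblast genes ran from 42.1 CPM in overexpressor myoblasts to 6834 in control myotubes. These genes did not move together: against control myoblasts, Dcn was higher and Col1a1 lower in both clones, while Pdgfra was higher in the knockout and lower in the overexpressor. Adipocyte (4 genes), endothelial (3) and macrophage (3) markers summed to at most 0.455, 0.56 and 1.81 CPM, with Adipoq, Plin1 and Adgre1 at 3 counts or fewer in every library. The 3 cardiac markers, Nkx2-5, Myh6 and Nppa, summed to 5.62 to 6.4 CPM in control, 4.85 to 7.3 in overexpressor and 46.7 to 59.7 in knockout myoblasts. The 3 smooth muscle markers, Myh11, Acta2 and Cnn1, summed to 3818 to 3940, 1301 to 1571 and 6854 to 7086 CPM in the same order. Those of the 4 myoblast markers (Myod1, Myf5, Pax7 and Des, the last being 1 of the 42 genes) were 1122 to 1248, 2247 to 2695 and 3014 to 3469 CPM. Fewer cells of a kind and less RNA per cell cannot be told apart in these bulk libraries, and the part of any of these markers in the results below was not tested.

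In myoblasts, the knockout clone carried most of these genes at over 50% of their level in differentiated control cells, while the control line carried most at under 10%. Among the 41 genes with more than 3 counts in some control myotube library, the mean of the knockout myoblasts was over 50% of the control myotube mean for 27 and that of the control myoblasts was under 10% for 27. Tpm1, Tpm3, Pdlim7 and Tmod4 were over 100% in control myoblasts, and Pdlim5 was at 88.2%. The 42 genes together held 1.94 to 2.28% of all counts in the knockout myoblasts, against 0.487 to 0.52% in the control and 0.595 to 0.671% in the overexpressor. Control myotubes held 2.25 to 2.29%, so the ranges of knockout myoblasts and control myotubes overlapped. The share reached 3.95 to 4.35% in overexpressor myotubes and 5.41 to 6.15% in knockout myotubes, with no overlap among the 3 myotube groups.

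**Figure D1:**
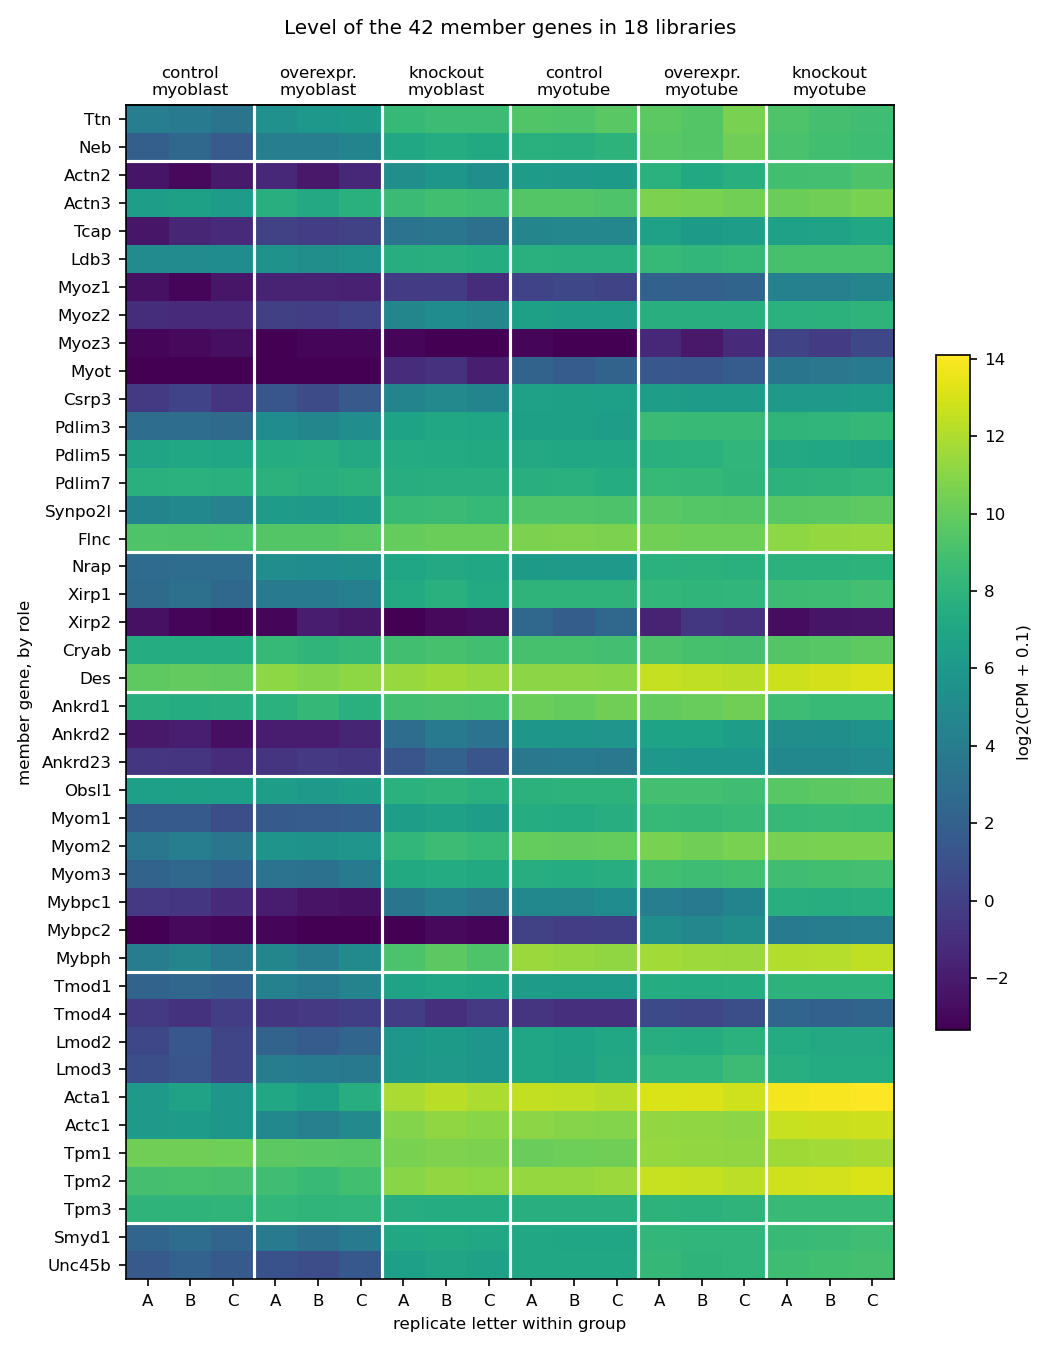
Level of each of the 42 genes (rows, grouped by role and separated by white lines) in each of the 18 libraries (columns), as log2(CPM + 0.1) by colour. Most rows are dark in the control and overexpressor myoblasts and bright in the knockout myoblasts and all myotubes, while Myoz1, Myoz3, Myot, Xirp2, Mybpc2 and Tmod4 stay dark in the knockout myoblasts.

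Tested with edgeR's quasi-likelihood test over 17912 genes, 36 of the 42 genes were higher and 1 was lower in knockout than in control myoblasts at an adjusted p under 0.05. Over all genes tested, 26.4% were higher and 26.6% lower in this comparison, and the median log2 fold change was 0.02 against 4.41 for the 42. With Myot, which had 0 counts in the control, at its lower bound and Myoz3, Xirp2 and Mybpc2 left out because their counts were too low in both groups, the median was 4.58. Of the 36, 33 rose by more than 2-fold. The gene that fell was Tpm3, and Myoz3, Pdlim7, Xirp2, Mybpc2 and Tmod4 did not pass the test. Throughout, log2 fold changes are given with their standard error (SE) and adjusted p-values come from this test.

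In overexpressor against control myoblasts, 24 genes were higher and 5 lower, beside 20.7% and 19.7% of all genes. Their median log2 fold change was 0.81 (1.12 without Myoz3, Myot and Mybpc2, whose counts were too low in both groups), and 18 rose by more than 2-fold. The 5 that fell were Mybpc1, Actc1, Tpm1, Tpm2 and Unc45b. Set directly against the overexpressor myoblasts, the knockout myoblasts had 35 of the 42 higher and 2 lower (Pdlim7 and Tpm3), beside 26.9% and 25.7% of all genes, with a median log2 fold change of 2.42. The 2 clone comparisons with the control share the same 3 control libraries.

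**Figure D2:**
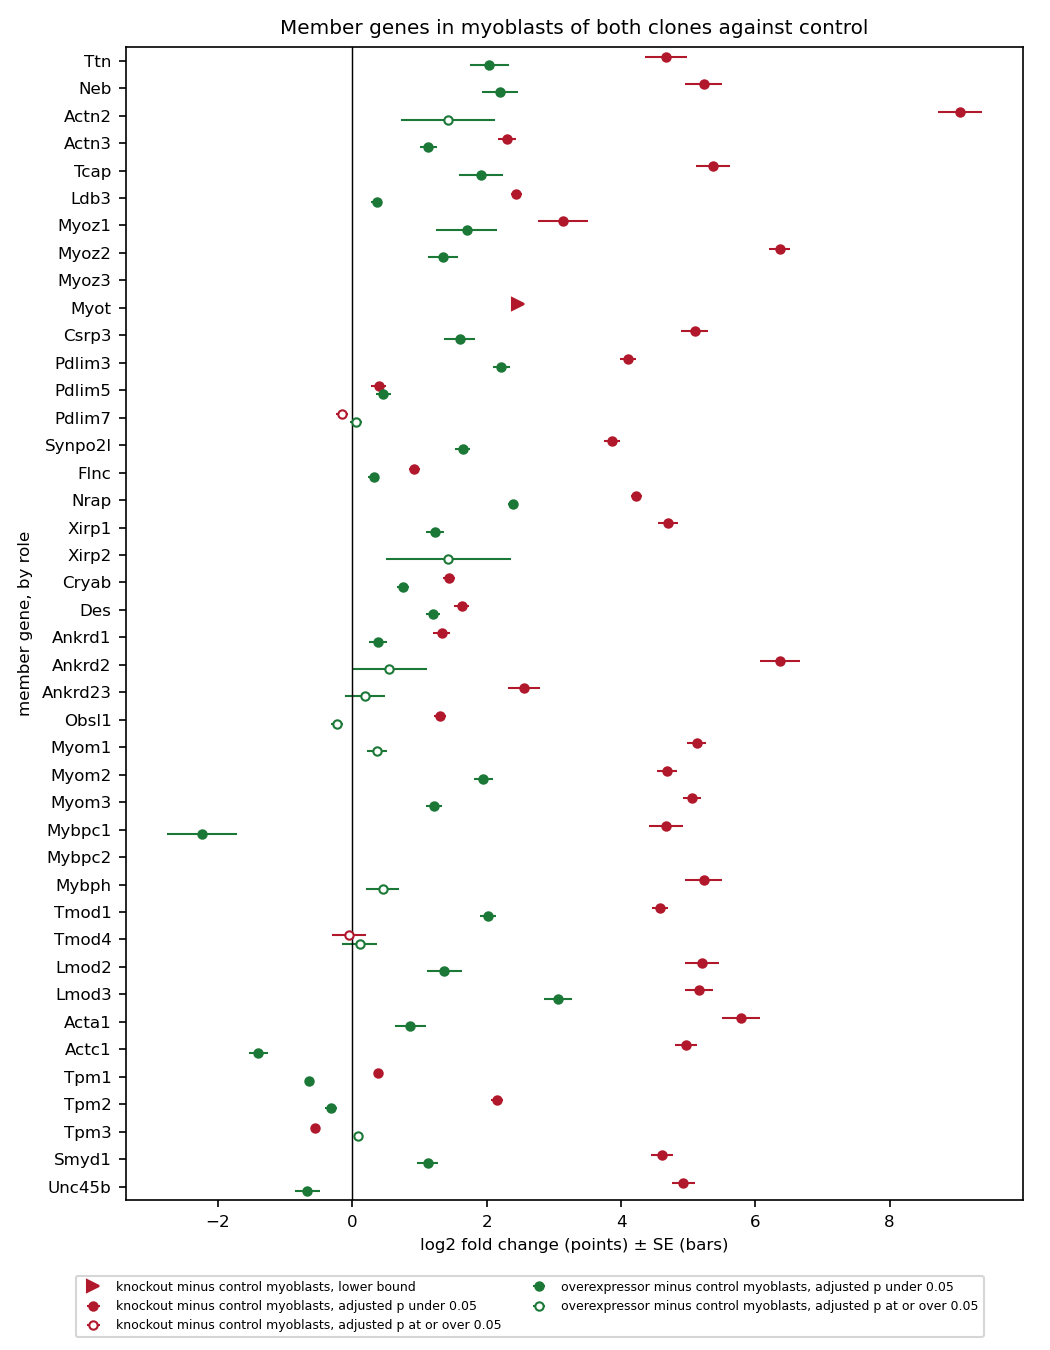
Log2 fold change of each gene in knockout (red) and overexpressor (green) myoblasts against control myoblasts, with SE as bars and filled points for an adjusted p under 0.05. Myot has no overexpressor point, since it had 0 counts in all control and overexpressor myoblast libraries. Where counts were too low in both groups no point is drawn (Myoz3 and Mybpc2 in both clones, Xirp2 in the knockout). The triangle for Myot in the knockout is a lower bound. Knockout points lie between -0.56 (Tpm3) and 9.05 (Actn2), and most lie to the right of the overexpressor point of the same gene.

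Promoter windows were matched by symbol to RefSeq (GRCm38.p6), 250 bases upstream of each annotated start, and 32 of the 42 genes had 1 or more. Those of 4 genes that rose in knockout myoblasts (Actn2, Nrap, Acta1 and Actc1) and of 2 that did not pass the test there but rose in control myotubes (Xirp2 and Mybpc2) are shown, to set the letters of both kinds beside each other. Capitals mark E-boxes (CANNTG), CArG boxes (the motif of serum response factor) and MEF2 motifs. The E-box was read on both strands since it is its own reverse complement, and it is a motif of MyoD-family and of other factors. Bases that lie in an annotated exon were left out, which shortened the windows of Actn2 and Actc1. The windows are chr13:12340761-12340982 (minus strand), chr19:56390039-56390288 (minus), chr8:123894776-123895025 (minus), chr2:114052888-114053125 (minus), chr2:67445752-67446001 (plus) and chr7:44524670-44524919 (minus).
Actn2: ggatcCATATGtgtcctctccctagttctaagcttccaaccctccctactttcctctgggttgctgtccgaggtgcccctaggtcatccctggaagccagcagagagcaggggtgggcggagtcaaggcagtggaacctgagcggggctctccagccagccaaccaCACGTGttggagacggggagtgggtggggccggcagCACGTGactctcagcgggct
Nrap: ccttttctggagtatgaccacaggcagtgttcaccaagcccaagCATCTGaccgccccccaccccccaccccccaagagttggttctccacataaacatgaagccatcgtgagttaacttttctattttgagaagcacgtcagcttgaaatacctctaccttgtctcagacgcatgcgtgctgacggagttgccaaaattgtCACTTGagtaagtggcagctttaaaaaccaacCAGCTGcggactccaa
Acta1: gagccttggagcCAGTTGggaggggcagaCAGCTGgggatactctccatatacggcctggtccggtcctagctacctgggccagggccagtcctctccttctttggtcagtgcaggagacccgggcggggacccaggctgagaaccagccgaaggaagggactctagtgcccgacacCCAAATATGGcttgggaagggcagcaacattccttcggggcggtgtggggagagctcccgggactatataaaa
Actc1: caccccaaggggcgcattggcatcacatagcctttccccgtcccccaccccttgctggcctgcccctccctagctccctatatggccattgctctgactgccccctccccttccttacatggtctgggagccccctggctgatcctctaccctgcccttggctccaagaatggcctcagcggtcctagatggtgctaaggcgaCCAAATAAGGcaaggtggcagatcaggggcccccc
Xirp2: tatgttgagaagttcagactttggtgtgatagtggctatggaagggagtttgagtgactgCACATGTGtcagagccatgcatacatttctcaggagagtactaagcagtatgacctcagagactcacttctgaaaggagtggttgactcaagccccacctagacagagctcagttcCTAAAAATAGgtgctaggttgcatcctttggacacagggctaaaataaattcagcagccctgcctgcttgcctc
Mybpc2: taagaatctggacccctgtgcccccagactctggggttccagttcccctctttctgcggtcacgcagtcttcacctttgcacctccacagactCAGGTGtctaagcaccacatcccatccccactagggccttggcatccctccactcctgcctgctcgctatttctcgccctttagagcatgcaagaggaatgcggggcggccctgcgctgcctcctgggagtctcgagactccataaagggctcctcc

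Both kinds held matches. The Actn2 and Nrap windows held 3 E-boxes each, none of those of Actn2 being CAGCTG. The Acta1 window held 2 E-boxes and a CArG box, and Actc1 held a CArG box and no E-box. Xirp2 had 2 overlapping E-boxes and a MEF2 motif, and Mybpc2 had 1 E-box. Windows of 1 gene can overlap, as those of Ldb3 do, so shares are given per gene, a gene counting once when any of its windows holds the motif. An E-box was found for 81.2% of the 32 genes, beside 69.3% of all 27025 genes with a window of this length. The E-box CAGCTG, counted within the former, was found for 34.4% and 14.7%, the CArG box for 12.5% and 1.62%, the MEF2 motif for 15.6% and 3.42%, and MCAT (CATTCC, either strand) for 28.1% and 14.4%. A match describes letters only and is no evidence of binding.

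The giant scaffolds were low in control myoblasts and rose in both clones. Ttn encodes titin, the spring that runs from Z-disc to M-band, and in libraries A, B and C it was at 17.5, 15.1 and 10.3 CPM in control, 44.2, 61 and 71.6 in overexpressor and 324, 386 and 389 in knockout myoblasts. Neb encodes nebulin, the ruler along the thin filament, at 3.76, 5.46 and 3.12 CPM in control, 17, 17.2 and 22.8 in overexpressor and 130, 179 and 156 in knockout myoblasts. The 3 lines did not overlap for either gene, and the order was control, overexpressor, knockout for both. Against control myoblasts, the log2 fold change of Ttn was 4.67 ± 0.32, adjusted p = 1.03e-08 in the knockout and 2.04 ± 0.29, adjusted p = 4.42e-05 in the overexpressor. For Neb it was 5.23 ± 0.28, adjusted p = 7.77e-10 and 2.20 ± 0.27, adjusted p = 8.53e-06.

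Control myotubes carried Ttn at 669, 624 and 803 CPM and Neb at 217, 191 and 241 CPM. Ttn in knockout myoblasts was lower than that, at 46.4 to 55.7% of the control myotube mean (log2 fold change -0.93 ± 0.27, adjusted p = 0.00796). Neb reached 60.2 to 82.8% of it, and that difference did not pass the test (-0.48 ± 0.23, adjusted p = 0.079). In overexpressor myotubes, library C stood above A and B for both genes, with Ttn at 817, 700 and 1520 CPM and Neb at 753, 686 and 1260 CPM. Genes with at least 10000 exon bases (1220 with a mean of 1 CPM or more) had a median deviation of 0.17 on the log2 scale from their group mean in that library, against -0.03 for the other 12126. Knockout myotubes had Ttn at 638, 500 and 430 CPM, with library A inside the control range, and Neb at 549, 450 and 404 CPM, above all 3 control libraries. The median log2 difference between knockout and control myotubes was -0.56 for the long genes and -0.07 for the others, and its part in the values of Ttn and Neb was not tested.

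Of the 14 Z-disc genes, 12 rose in knockout myoblasts and none fell (beside 26.4% and 26.6% of all genes), and 10 rose in overexpressor myoblasts (beside 20.7%). Actn2, which encodes the main sarcomeric alpha-actinin of cardiac and oxidative muscle, had 5, 2 and 6 counts in the control libraries, or 0.0936, 0.0385 and 0.134 CPM. It was at 0.299, 0.129 and 0.277 CPM in overexpressor and 39.5, 60 and 41.6 CPM in knockout myoblasts. The knockout libraries were all above the rest, whereas overexpressor library B lay inside the control range, and the difference did not pass the test (1.42 ± 0.70, adjusted p = 0.124). Its log2 fold change of 9.05 ± 0.33 in knockout myoblasts was the highest among the genes counted in both groups (adjusted p = 3.37e-12). Actn3, the fast-fibre paralog, was already at 84.3, 93.3 and 74.8 CPM in control myoblasts and rose to 380, 462 and 405 in the knockout (2.30 ± 0.13, adjusted p = 1.78e-10).

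Tcap encodes telethonin, which caps titin's end at the Z-disc. It was at 0.112, 0.269 and 0.334 CPM in control, 0.918, 0.776 and 0.971 in overexpressor and 9.66, 11.3 and 8.35 in knockout myoblasts, without overlap, and rose in both clones (5.37 ± 0.25, adjusted p = 1.4e-11 in the knockout, 1.92 ± 0.33, adjusted p = 0.000144 in the overexpressor). In control myotubes it was at 23.8, 26.7 and 27 CPM, above all knockout myoblast libraries. Tcap reached 99.6, 70.7 and 84.9 CPM in overexpressor myotubes and 101, 105 and 136 in knockout myotubes, both above the control.

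The myozenins, which tether alpha-actinin to calcineurin, differed from each other. Myoz2, the slow and cardiac form, rose from 0.351 ± 0.036 to 29 ± 5.1 CPM (SD, n = 3) in knockout myoblasts (6.36 ± 0.16, adjusted p = 1.38e-15). Myoz1, the fast form, was at 0.0749, 0.0192 and 0.111 CPM in control, 0.22, 0.237 and 0.208 in overexpressor and 0.731, 0.71 and 0.391 in knockout myoblasts, and rose by less (3.14 ± 0.37, adjusted p = 9.43e-07). Myoz3 stayed at 3 counts or fewer in every library of the control, overexpressor and knockout myoblasts and of the control myotubes. It was first above that in overexpressor myotubes, at 0.297, 0.125 and 0.319 CPM, and in knockout myotubes, at 1.11, 0.72 and 1.28 CPM, at least 4.13-fold and at least 17.3-fold higher than in control myotubes against a floor of 3 counts per library.

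Myot encodes myotilin, an actin-bundling protein of the mature Z-disc. All 6 control and overexpressor myoblast libraries had 0 counts, and knockout myoblasts had 17, 25 and 10 counts (0.366, 0.455 and 0.178 CPM), at least 5.53-fold above the control floor. Control myotubes were at 4.55, 3.2 and 4.51 CPM, so the knockout myoblasts held 4.35 to 11.1% of that level. Overexpressor myotubes were at 2.49, 2.4 and 3.29 CPM and knockout myotubes at 11, 11.7 and 13.8 CPM.

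Csrp3 encodes muscle LIM protein, a Z-disc sensor of stretch. It was at 0.674, 1.02 and 0.512 CPM in control, 2.44, 1.57 and 2.75 in overexpressor and 23.3, 29.8 and 23.4 in knockout myoblasts and rose in both clones (5.10 ± 0.20, adjusted p = 1.6e-12 in the knockout, 1.60 ± 0.23, adjusted p = 1.91e-05 in the overexpressor). It then ended lower in knockout myotubes (69.8, 67.6 and 80.6 CPM) than in control myotubes (98.3, 96.3 and 89.5 CPM), with no overlap (-0.38 ± 0.14, adjusted p = 0.0267). That call was lost with DESeq2's size factors (-0.25, adjusted p = 0.135), without the low-count filter and without 4 of the 6 libraries in turn. Overexpressor myotubes were at 82.6, 76.7 and 77.2 CPM and did not pass the test against the control (adjusted p = 0.128).

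The PDZ-LIM genes, whose proteins bind alpha-actinin, went separate ways. Pdlim3 was at 7.32, 7.38 and 6.48 CPM in control, 36, 25.8 and 37.2 in overexpressor and 111, 135 and 120 in knockout myoblasts, and rose in both clones (4.11 ± 0.12, adjusted p = 1.5e-14; 2.22 ± 0.12, adjusted p = 4e-11). The knockout myoblasts were also above control myotubes, which were at 96.1, 96.9 and 88.4 CPM (0.38 ± 0.11, adjusted p = 0.00479). Pdlim5, at 116, 130 and 124 CPM in control, 178, 183 and 149 in overexpressor and 168, 164 and 153 in knockout myoblasts, rose slightly in both (0.39 ± 0.11 and 0.46 ± 0.11). Pdlim7 was at 212, 219 and 213 CPM in control, 237, 199 and 232 in overexpressor and 189, 194 and 195 in knockout myoblasts, and neither difference from control passed the test. These 2 were abundant before differentiation, and Pdlim7 was at 192, 212 and 179 CPM and Pdlim5 at 148, 131 and 141 CPM in control myotubes.

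Among the remaining Z-disc genes, Synpo2l, which encodes an actin-bundling protein of the Z-disc, rose from 23.9 ± 3.6 to 349 ± 28 CPM (SD, n = 3) in knockout myoblasts (3.87 ± 0.12, adjusted p = 1.34e-14). Ldb3, encoding the alpha-actinin binding protein Cypher/ZASP, rose from 34.7 ± 0.98 to 189 ± 16 CPM (2.44 ± 0.08, adjusted p = 5.16e-14). Flnc, encoding the actin cross-linker filamin C, started high, at 593 ± 24 CPM, and reached 1120 ± 81 CPM (0.92 ± 0.08, adjusted p = 1.82e-08). All 3 genes also rose in overexpressor myoblasts, by 1.64 ± 0.11, 0.36 ± 0.08 and 0.32 ± 0.08 on the log2 scale.

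Nrap encodes a scaffold of nascent myofibrils, and it was the gene with the highest knockout myoblast level relative to control myotubes. It was at 6.82, 7.38 and 7.33 CPM in control, 36.9, 35.1 and 40.8 in overexpressor and 127, 145 and 131 in knockout myoblasts, and at 72.7, 64.1 and 68.7 CPM in control myotubes. All knockout myoblast libraries were above all control myotube libraries, at 185 to 212% of the control myotube mean (0.97 ± 0.07, adjusted p = 8.47e-10). It rose in both clones as myoblasts (4.23 ± 0.08, adjusted p = 1.97e-16 in the knockout, 2.39 ± 0.08, adjusted p = 5.45e-14 in the overexpressor). In myotubes it was at 219, 230 and 213 CPM in the overexpressor and 235, 234 and 247 in the knockout, and the difference between the clones did not pass the test (log2 0.11 ± 0.07, adjusted p = 0.167).

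Des encodes desmin, the muscle intermediate filament, and was abundant in every group. It was at 862, 965 and 912 CPM in control, 2210, 1840 and 2250 in overexpressor and 2690, 3110 and 2660 in knockout myoblasts, without overlap between control and either clone (1.63 ± 0.11, adjusted p = 4.67e-10; 1.20 ± 0.11, adjusted p = 3.55e-08). In myotubes it was at 2110, 2140 and 2070 CPM in control, 5990, 5450 and 4930 in overexpressor and 6990, 7990 and 9430 in knockout libraries. The knockout myoblasts exceeded the control myotubes (0.42 ± 0.10, adjusted p = 0.00189).

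Cryab encodes alphaB-crystallin, a chaperone of desmin and titin. It was at 175, 180 and 173 CPM in control, 319, 267 and 308 in overexpressor and 459, 515 and 459 in knockout myoblasts, and rose in both clones (1.44 ± 0.09, adjusted p = 1.37e-10; 0.76 ± 0.09, adjusted p = 9.15e-07). Control myotubes had 526, 527 and 483 CPM, overexpressor myotubes 601, 525 and 506 and knockout myotubes 704, 772 and 859. Part of its exon length, 17.04%, overlaps Hspb2 on the opposite strand, and whether the counting used strand is not given in the sources used here.

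The Xin repeat genes, whose actin-binding proteins mark remodelling and injured muscle, split. Xirp1 rose from 6.8 ± 1.4 to 177 ± 30 CPM (SD, n = 3) in knockout myoblasts (4.70 ± 0.15, adjusted p = 1.41e-13). Xirp2 was near its floor in all myoblasts, with 4, 1 and 0 counts in control, 1, 7 and 5 in overexpressor and 0, 2 and 3 in knockout libraries. Control myotubes had 5.55, 3.46 and 5.7 CPM, overexpressor myotubes 0.238, 0.6 and 0.458 and knockout myotubes 0.0512, 0.1 and 0.105. Xirp2 was thus induced in control cells (7.12 ± 0.54, adjusted p = 1.79e-09) and was lower in the myotubes of both clones (-5.82 ± 0.47, adjusted p = 4.03e-09 in the knockout, -3.48 ± 0.36, adjusted p = 1.47e-07 in the overexpressor).

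The muscle ankyrin repeat genes encode titin-binding proteins that respond to stretch. Ankrd1 was at 207, 174 and 187 CPM in control, 224, 305 and 212 in overexpressor and 460, 506 and 461 in knockout myoblasts, and rose in the knockout (1.33 ± 0.13, adjusted p = 2.01e-07) and by less in the overexpressor (0.38 ± 0.13, adjusted p = 0.0259). The overexpressor call was lost without library B of that line (0.20, adjusted p = 0.177), without control library B or C, with library totals, without the low-count filter and in a fit of these groups alone. In myotubes it was at 1140, 1020 and 1270 CPM in control, 966, 1060 and 1270 in overexpressor and 414, 365 and 350 in knockout libraries. The knockout therefore went from above the control as myoblasts to below it as myotubes, with no overlap at either stage (-1.60 ± 0.13, adjusted p = 1.29e-08 in myotubes). The difference between the clone's response to differentiation and the control's was -2.93 ± 0.19, adjusted p = 1.54e-09, on the log2 scale.

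Ankrd2 rose from 0.131, 0.173 and 0.0668 CPM in control to 7.49, 14.3 and 9.97 in knockout myoblasts (6.37 ± 0.30, adjusted p = 3.49e-11), while overexpressor myoblasts had 0.16, 0.151 and 0.254 CPM. Control myotubes reached 59, 59.3 and 55.3 CPM, overexpressor myotubes 109, 111 and 87.4 and knockout myotubes 39.4, 40.8 and 47.8. Ankrd23 was at 0.58, 0.558 and 0.356 CPM in control, 0.519, 0.625 and 0.578 in overexpressor and 2.26, 4.3 and 2.35 in knockout myoblasts, where it rose (2.56 ± 0.24, adjusted p = 9.17e-08). Its levels in myotubes were 12.2, 14.3 and 12.4 CPM in control, 63.5, 57.5 and 56.8 in overexpressor and 27.3, 28.3 and 33.8 in knockout libraries. Of its exon bases, 78.2% also belong to Gm42417 on the same strand, which had 0 to 6 counts per library, so the counts of Ankrd23 are uncertain.

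At the M-band, all 3 myomesin genes rose in knockout myoblasts, while the overexpressor differed by gene. Myom1 was at 2.92, 2.9 and 1.72 CPM in control, 2.91, 3.3 and 3.63 in overexpressor and 84.8, 98.3 and 83.5 in knockout myoblasts (5.13 ± 0.14, adjusted p = 4.66e-15 in the knockout). Myom2, the form of fast adult muscle, was at 11.1, 17.2 and 11.4 CPM in control, 51.1, 48.9 and 53.3 in overexpressor and 299, 394 and 326 in knockout myoblasts (4.68 ± 0.15, adjusted p = 1.7e-13). Myom3 was at 4.46, 5.54 and 4.08 CPM in control, 10, 9.25 and 13.6 in overexpressor and 150, 169 and 151 in knockout myoblasts (5.06 ± 0.13, adjusted p = 2.09e-15). In the overexpressor, Myom2 and Myom3 rose (1.95 ± 0.14, adjusted p = 5.54e-09 and 1.22 ± 0.12, adjusted p = 2.44e-07) and Myom1 did not pass the test (0.37 ± 0.15, adjusted p = 0.0581).

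Control myotubes had Myom1 at 174, 166 and 183 CPM, Myom2 at 990, 941 and 1000 and Myom3 at 188, 175 and 188. Knockout myoblasts stood at different fractions of those levels: 30.6 to 40.4% for Myom2, 47.9 to 56.4% for Myom1 and 81.7 to 91.9% for Myom3. In overexpressor myotubes Myom1 was at 323, 306 and 356 CPM, Myom2 at 1540, 1270 and 1540 and Myom3 at 449, 420 and 452. In knockout myotubes they were at 333, 334 and 331, 1440, 1520 and 1560 and 441, 452 and 473 CPM. All 3 were higher in the myotubes of either clone than in control myotubes.

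Myosin-binding proteins, which set the spacing and activity of thick filaments, did not move together. Mybpc1, the slow form, was at 0.637, 0.577 and 0.312 CPM in control, 0.16, 0.0863 and 0.0693 in overexpressor and 10.9, 17 and 11.7 in knockout myoblasts, so the clones differed from the control in opposite directions (4.67 ± 0.26, adjusted p = 4.59e-10 in the knockout, -2.24 ± 0.52, adjusted p = 0.00253 in the overexpressor). The same held in myotubes, at 28.4, 26.6 and 34.7 CPM in control, 17.7, 14.9 and 23.4 in overexpressor and 194, 182 and 194 in knockout libraries (2.67 ± 0.19, adjusted p = 4.87e-09; -0.68 ± 0.18, adjusted p = 0.00456). Mybpc2, the fast form, had at most 2 counts in every myoblast library of all 3 lines. It was at 0.966, 0.778 and 0.848 CPM in control myotubes, 39.8, 26.9 and 38.3 in overexpressor myotubes and 15.4, 15.7 and 17.4 in knockout myotubes. Against the myoblast floor of 3 counts per library that is at least 14.3-fold, 541-fold and 281-fold higher, and both clones exceeded the control as myotubes (5.33 ± 0.20, adjusted p = 1.9e-13 in the overexpressor, 4.22 ± 0.20, adjusted p = 2.61e-12 in the knockout).

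Mybph rose from 18 ± 5.7 to 676 ± 130 CPM (SD, n = 3) in knockout myoblasts (5.23 ± 0.27, adjusted p = 5.03e-10), with 49.89% of its exon length overlapped by Adora1 on the opposite strand. Obsl1, encoding an obscurin-like cytoskeletal adaptor, rose from 93.1 ± 3.4 to 229 ± 26 CPM (1.30 ± 0.09, adjusted p = 1.4e-09). In overexpressor myoblasts neither passed the test against the control.

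Of the 9 thin filament genes, 7 rose and 1 fell in knockout myoblasts (beside 26.4% and 26.6% of all genes), and 4 rose and 3 fell in overexpressor myoblasts (beside 20.7% and 19.7%). Acta1 encodes skeletal alpha-actin, and it was at 65.9, 105 and 59.6 CPM in control, 141, 94.4 and 183 in overexpressor and 3840, 5000 and 3920 in knockout myoblasts. Actc1 encodes cardiac alpha-actin, the form of early skeletal muscle, and it was at 63.9, 77.6 and 59.2 CPM in control, 28.4, 18.9 and 28.8 in overexpressor and 1900, 2360 and 2030 in knockout myoblasts. Both rose in the knockout (5.79 ± 0.28, adjusted p = 1.77e-10 for Acta1, 4.97 ± 0.16, adjusted p = 6.36e-14 for Actc1). In the overexpressor they parted: Actc1 fell, with all 3 libraries below the control (-1.40 ± 0.14, adjusted p = 2.47e-07), and Acta1 rose (0.86 ± 0.23, adjusted p = 0.00737), although overexpressor library B lay inside the control range and the call was lost in a fit of these groups alone (adjusted p = 0.0768).

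Control myotubes had Acta1 at 5650, 5590 and 4770 CPM and Actc1 at 2100, 1970 and 1900 CPM. The levels in knockout myoblasts were 72 to 93.7% and 95.3 to 118% of the control myotube means, and neither difference passed the test (adjusted p = 0.226 and 0.651). Overexpressor myotubes had Acta1 at 8990, 9370 and 7400 CPM and Actc1 at 2460, 2380 and 2120 CPM. Knockout myotubes had the highest levels, at 14100, 15600 and 17500 CPM for Acta1 and 6330, 6780 and 7060 CPM for Actc1. Both exceeded control myotubes there (1.56 ± 0.23, adjusted p = 2.83e-05; 1.76 ± 0.13, adjusted p = 4.1e-09).

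Tropomyosins lie along actin, and all 3 genes also make non-muscle isoforms that counts per gene do not separate. Tpm1 was at 1250, 1250 and 1220 CPM in control, 830, 796 and 758 in overexpressor and 1540, 1660 and 1640 in knockout myoblasts, with no overlap. Tpm2 was at 505, 526 and 502 CPM in control, 423, 363 and 443 in overexpressor and 2090, 2470 and 2220 in knockout myoblasts. Tpm3 was at 259, 262 and 273 CPM in control, 290, 273 and 279 in overexpressor and 183, 177 and 179 in knockout myoblasts. Tpm1 and Tpm2 rose in the knockout (0.38 ± 0.06, adjusted p = 7.53e-05; 2.15 ± 0.09, adjusted p = 1.81e-12) and fell in the overexpressor (-0.64 ± 0.07, adjusted p = 2.29e-07; -0.32 ± 0.09, adjusted p = 0.00852), and the last call was lost without overexpressor library B (-0.24, adjusted p = 0.0528). Tpm3 was the 1 gene of the 42 that fell in the knockout (-0.56 ± 0.05, adjusted p = 3.5e-08).

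In myotubes Tpm1 was at 1130, 1240 and 1300 CPM in control, 2540, 2500 and 2340 in overexpressor and 3200, 3290 and 3590 in knockout libraries. Tpm2 was at 2620, 2620 and 2820 CPM in control, 6240, 6170 and 5380 in overexpressor and 7280, 7810 and 8980 in knockout libraries. Tpm3 was at 207, 207 and 199 CPM in control, 250, 234 and 256 in overexpressor and 343, 350 and 362 in knockout libraries. Both clones were above the control for all 3 genes. Tpm3 shares 1910 of 2233 transcript bases at 99.2% identity with Tpm3-rs7, which itself held 3349 to 6741 counts per library, so reads of the pair may have been divided between them.

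Tropomodulins cap the pointed end of actin and leiomodins seed and lengthen it. Tmod1 was at 4.59, 5.4 and 4.21 CPM in control, 20.4, 15 and 22.1 in overexpressor and 106, 122 and 112 in knockout myoblasts (4.58 ± 0.12, adjusted p = 3.06e-15 in the knockout), and control myotubes were lower than the knockout myoblasts, at 76.7, 73.6 and 73.6 CPM (0.61 ± 0.10, adjusted p = 5.03e-05). Part of its exon length, 32.62%, overlaps Tstd2 on the opposite strand. Tmod4, the skeletal form, did not pass the test in the myoblasts of either clone. It was at 0.674, 0.481 and 0.78 CPM in control, 0.579, 0.647 and 0.855 in overexpressor and 0.796, 0.437 and 0.641 in knockout myoblasts. It was at 0.53, 0.412 and 0.433 CPM in control, 1.41, 1.18 and 1.69 in overexpressor and 5.11, 4.2 and 4.89 in knockout myotubes, higher in both clones than in control (3.36 ± 0.23, adjusted p = 6.65e-10 in the knockout).

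Lmod3 had the largest rise of the 42 genes in overexpressor myoblasts (3.06 ± 0.21, adjusted p = 9.05e-09). It was at 1.74, 2.27 and 1.16 CPM in control, 16.4, 14 and 13.1 in overexpressor and 59.5, 69.1 and 58 in knockout myoblasts, without overlap. In myotubes it was at 126, 106 and 143 CPM in control, 289, 286 and 401 in overexpressor and 203, 171 and 171 in knockout libraries. Lmod2, the cardiac form, rose from 1.66 ± 0.83 to 62.1 ± 8.5 CPM (SD, n = 3) in knockout myoblasts (5.21 ± 0.25, adjusted p = 1.75e-10) and rose in overexpressor myoblasts (1.37 ± 0.26, adjusted p = 0.000617).

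The assembly factors Smyd1, a methyltransferase that binds myosin, and Unc45b, a myosin chaperone, both rose in knockout myoblasts. Smyd1 went from 5.79 ± 1.3 to 141 ± 12 CPM (SD, n = 3; 4.61 ± 0.17, adjusted p = 9.75e-13) and Unc45b from 3.36 ± 0.84 to 103 ± 12 CPM (4.93 ± 0.17, adjusted p = 3.47e-13). They parted in the overexpressor, where Smyd1 rose (1.12 ± 0.16, adjusted p = 2.15e-05) and Unc45b fell (-0.67 ± 0.19, adjusted p = 0.00799), a call lost without control library B (-0.44, adjusted p = 0.0544).

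**Figure D3:**
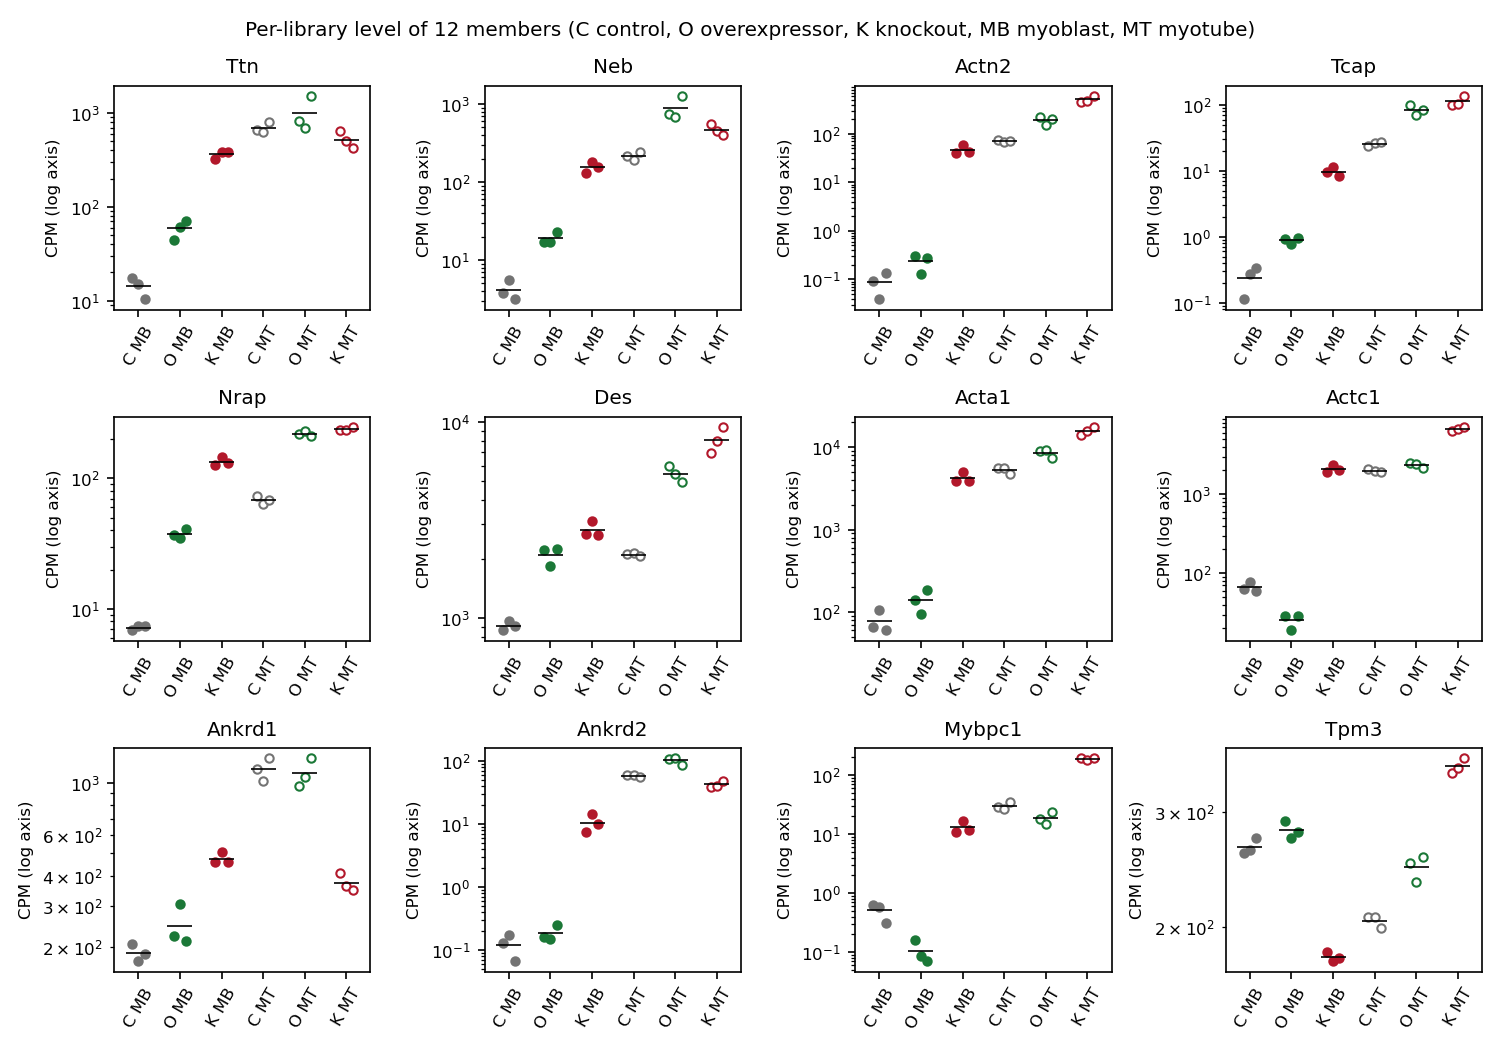
CPM on a log axis of 12 of the genes in each library, by line (grey control, green overexpressor, red knockout) and stage (filled myoblasts, open myotubes), with black bars for group means. Actc1 and Mybpc1 are lower in overexpressor than in control myoblasts, Ankrd1 in knockout myotubes lies below the other myotubes, and Nrap in knockout myoblasts lies above control myotubes.

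The order of induction was taken from the control line, as the size of the rise by day 3, since 1 differentiated time point gives no timing. There 36 genes were higher and 1, Tpm3, lower in myotubes than in myoblasts, beside 33.9% and 28.8% of all genes. The median log2 fold change was 4.79 (4.68 with Myot and Mybpc2 at their lower bounds and Myoz3 left out), against 0.07 for all genes, and all 36 rose by more than 2-fold. With library totals in place of the TMM factors, 36 were higher and 4 lower, beside 4336 and 7091 of all genes tested. Under that scaling 37.9% of all calls were higher, against 90% of the calls among the genes described here. Among genes counted in control myoblasts the steepest was Actn2 (9.66 ± 0.32), followed by Ankrd2 (8.81 ± 0.29), Myoz2 (7.96 ± 0.16), Mybph (7.16 ± 0.30) and Xirp2 (7.12 ± 0.54), and the values of Mybph and Xirp2 lay within 1 SE of each other. In control myoblasts Actn2 had 2 to 6 counts, Ankrd2 3 to 9 and Xirp2 0 to 4, so the places of these genes rest on few counts. A broad middle followed, with Csrp3 at 6.99 ± 0.21, Tcap at 6.78 ± 0.24, Lmod2, Myom2, Lmod3, Acta1 and Myom1 between 6.10 and 6.22, and Mybpc1, Neb, Ttn, Unc45b, Myom3 and Xirp1 between 5.23 and 5.85. From there the rise fell off through Actc1 (4.89 ± 0.15), Nrap (3.25 ± 0.08) and Tpm2 (2.40 ± 0.09). At the low end were Flnc (1.45 ± 0.08), Obsl1 (1.37 ± 0.09) and Des (1.21 ± 0.11). Myot, from 0 counts in every myoblast library, and Mybpc2 rose at least 67.9-fold and at least 14.3-fold, lower bounds that give them no place in this order. Pdlim5, Pdlim7, Tpm1, Myoz3 and Tmod4 did not pass the test.

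Knockout myoblasts were then set against control myotubes, to see how much of the differentiated level was present before serum withdrawal. Of the 42 genes, 5 were higher (Nrap, Tmod1, Pdlim3, Des and Tpm1), 25 were lower and 12 did not pass the test, beside 28.5% and 32.6% of all genes higher and lower. With library totals in place of the TMM factors, 9 were higher and 22 lower, beside 7043 and 4316 of all genes tested. Under that scaling 62% of all calls were higher, against 29% of the calls among the 42. Among the 41 genes with more than 3 counts in some control myotube library, the knockout myoblast mean was over 100% of the control myotube mean for 9, between 50 and 100% for 18, between 10 and 50% for 11 and under 10% for 3 (Xirp2, Mybpc2 and Myot). The median was 68.8%, and on the same scale it was 8.79% for overexpressor and 3.36% for control myoblasts. The bands over 50% include genes already near or above 100% in control myoblasts: Tpm1 (101%), Tpm3 (130%), Pdlim7 (110%), Tmod4 (141%) and Pdlim5 (88.2%). None of these was higher in control myotubes than in control myoblasts by the test, so their place there shows no early gain of a differentiated level.

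Genes below 40% of the control myotube mean, apart from those 3, were Ankrd2 at 18.3%, Ankrd23 at 22.9%, Mybph at 26.1%, Csrp3 at 26.9%, Myoz2 at 32.9%, Myom2 at 34.8% and Tcap at 37.9%. All 7 were lower in knockout myoblasts than in control myotubes by the test. Among the 9 above 100% were Smyd1 at 110% and Actc1 at 105%, neither of which passed the test, and also Tpm1 at 132%, Tmod1 at 152% and Nrap at 196%, which did. Of those that passed, Tpm1 was at 101% in control myoblasts too, against 6.34% for Tmod1 and 10.5% for Nrap.

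**Figure D4:**
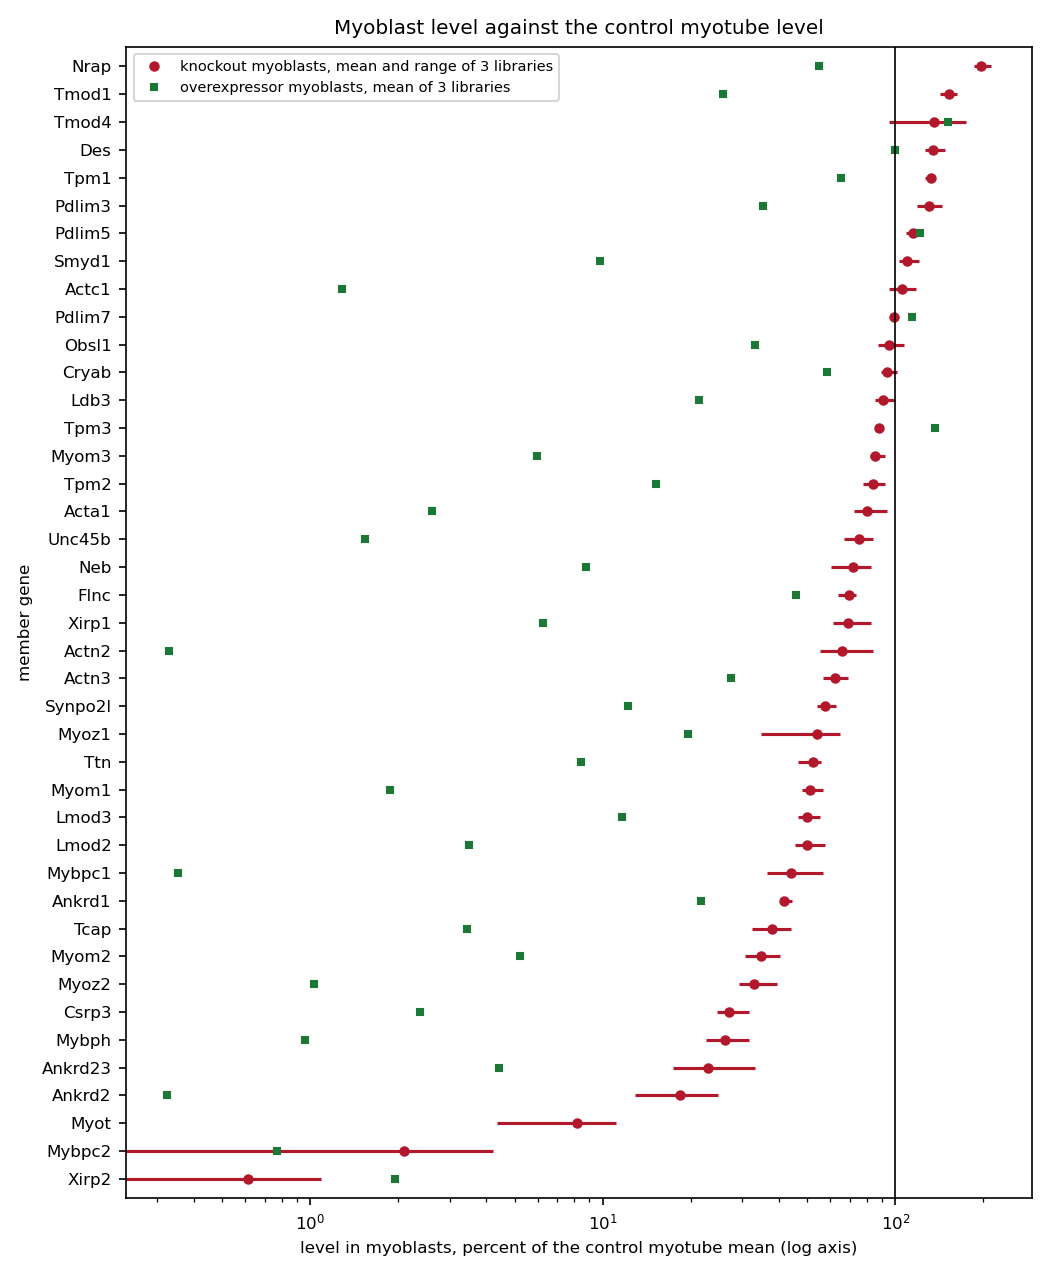
Level of 41 genes in knockout myoblasts (red, mean with the range of 3 libraries) and overexpressor myoblasts (green squares, mean) as a percent of the control myotube mean, on a log axis, with a line at 100%. Ranges of Xirp2 and Mybpc2 reach 0 and run off the axis, Myot has no green square because it was at 0, and Myoz3 is left out because its control myotube counts were 1 or fewer. Knockout means run from 0.611% for Xirp2 to 196% for Nrap.

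From myoblasts to myotubes, overexpressor cells had 41 of the 42 genes higher and Tpm3 lower, beside 29.8% and 33% of all genes, with a median log2 fold change of 4.2. Knockout cells had 38 higher and 2 lower (Pdlim5 and Ankrd1), beside 29.8% and 35.6% of all genes, with a median of 1.57. The genes that did not pass the test in knockout cells were Ttn, at 0.51 ± 0.27, and Xirp2. With DESeq2's size factors none of these 3 genes was called lower (Tpm3, Pdlim5 and Ankrd1). Among genes counted in the myoblasts of the line, the steepest in the overexpressor were Actn2 (9.65 ± 0.29) and Ankrd2 (9.09 ± 0.28), and in the knockout Myot (5.19 ± 0.27), Myoz1 (5.13 ± 0.21) and Mybpc1 (3.85 ± 0.20). Genes at the floor in myoblasts have lower bounds only: in the overexpressor Mybpc2 rose at least 541-fold and Myot at least 42.2-fold, and in the knockout Mybpc2 rose at least 281-fold and Myoz3 at least 18-fold.

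The difference in response was tested directly. In the knockout, the log2 change from myoblasts to myotubes was below the control's for 33 genes and above it for 7. Over all genes the shares in those directions were 29.9% and 20.2%. Among the 33, Ankrd1 and Pdlim5 fell in the knockout. The median difference was -2.97 on the log2 scale, against -0.12 for all genes. It was -5.09 ± 0.41, adjusted p = 1.15e-07 for Ttn, -6.21 ± 0.42, adjusted p = 1.1e-08 for Actn2 and -6.81 ± 0.36, adjusted p = 3e-10 for Ankrd2. Such a difference depends on the myoblast levels too, and 36 of the 42 genes were already higher in knockout than in control myoblasts. A smaller change is thus not a lower end level: 35 genes were higher and 4 lower in knockout than in control myotubes. Actn2 ended at 512 ± 74 CPM there, against 71.7 ± 3.4 in the control (SD, n = 3). The 7 genes with a change above the control's were Myoz3, Pdlim7, Obsl1, Mybpc2, Tpm1, Tpm3 and Tmod4. Of these, Myoz3 had 3 counts or fewer in every library of knockout myoblasts and of control cells, so its place rests on the group through which it passed the filter. The difference was 1.08 ± 0.09, adjusted p = 2.73e-08 for Tpm1 and 3.41 ± 0.35, adjusted p = 2.94e-07 for Tmod4.

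In the overexpressor, the log2 change from myoblasts to myotubes was above the control's for 13 genes and below it for 11. Over all genes these shares were 16.6% and 22.3%, and the median difference among the 42 was 0.01. Tpm3, among the 13, fell in both lines. Those with a stronger response included Actc1 (1.62 ± 0.19, adjusted p = 2.51e-06), Unc45b (1.71 ± 0.23, adjusted p = 1.39e-05), Tpm1 (1.65 ± 0.09, adjusted p = 1.35e-10) and Tpm2 (1.46 ± 0.13, adjusted p = 4.93e-08), all of which had been lower than control as myoblasts. Weaker responses included Xirp2 (-4.92 ± 1.02, adjusted p = 0.000754), Csrp3 (-1.86 ± 0.27, adjusted p = 2.73e-05) and Lmod3 (-1.68 ± 0.27, adjusted p = 0.000106).

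As myotubes, both clones had more of the 42 genes higher than lower against the control. Knockout myotubes had 35 genes higher and 4 lower (Csrp3, Xirp2, Ankrd1 and Ankrd2, the last at -0.44 ± 0.17, adjusted p = 0.0287), beside 31% and 37% of all genes, with a median log2 fold change of 1.32. Overexpressor myotubes had 31 higher and 4 lower (Myot, Flnc, Xirp2 and Mybpc1, with Myot at -0.59 ± 0.21, adjusted p = 0.0276), beside 26.2% and 30.9% of all genes, with a median of 0.93. With DESeq2's size factors the calls of Ankrd2 and Myot were lost (adjusted p = 0.123 and 0.0544), and each was also lost without 4 of its 6 libraries in turn. Marker sums differed between the same groups: the fibroblast genes summed to 5770 to 6834 CPM in control myotubes, 319 to 495 in those of the overexpressor and 1360 to 1601 in those of the knockout. By gene, Pdgfra and Col1a1 were lower than control in the myotubes of both clones. Dcn was lower in those of the overexpressor and did not pass the test in those of the knockout. The genes of dividing cells summed to 164 to 222 CPM in overexpressor and 162 to 224 in knockout myotubes, both above the 86.5 to 116 of the control. Their part in these counts was not tested. Between the clones, the knockout had 23 higher and 10 lower as myotubes, beside 29.1% and 30.6% of all genes. The 10 lower were Ttn, Neb, Pdlim3, Pdlim5, Xirp2, the 3 ankyrin repeat genes, Mybpc2 and Lmod3. For Ttn and Neb, overexpressor library C stood above A and B. Both have over 10000 exon bases, and such genes had a median log2 difference from control myotubes of -0.56 in the knockout and -0.14 in the overexpressor. The part of either in these 2 calls was not tested. Among the higher, Mybpc1 differed by 3.35 ± 0.20, adjusted p = 1.49e-09 and Myoz1 by 2.32 ± 0.17, adjusted p = 2.96e-09. Flnc parted between the clones, falling in overexpressor myotubes (-0.35 ± 0.08, adjusted p = 0.000921) and rising in knockout myotubes (0.65 ± 0.08, adjusted p = 1.09e-06) against control.

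Paralogs were compared per length, as the share of counts per kilobase of annotated exon within a gene family in each library. Skeletal actin (Acta1) made up 54.1 ± 4% (SD, n = 3) of the pair Acta1 and Actc1 in control myoblasts. Its share was larger in the myoblasts of both clones, at 85 ± 1.7% for the overexpressor and 68.1 ± 1% for the knockout. Control myotubes stood at 73.8 ± 1.2%, between overexpressor myotubes at 79.5 ± 0.96% and knockout myotubes at 71.1 ± 1.1%. At both stages neither clone overlapped the control, and the exact two-sided permutation test gave p = 0.1, the smallest that 3 against 3 allows.

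Actn2 held 0.0842 ± 0.052% of the alpha-actinin pair in control myoblasts (SD, n = 3), the rest being Actn3. Overexpressor myoblasts had 0.0949 ± 0.024%, overlapping the control, and knockout myoblasts 7.89 ± 0.99%, overlapping control myotubes at 7.57 ± 0.35%. Knockout myotubes stood apart at 22.9 ± 0.3%, beside 8.93 ± 1.7% in overexpressor myotubes. Between the clones as myotubes, Actn2 was higher in the knockout (log2 fold change 1.42 ± 0.17, adjusted p = 4.3e-06) and Actn3 did not pass the test (-0.18 ± 0.13, adjusted p = 0.229).

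Within the tropomyosins, Tpm2 went from 42.8 ± 0.48% of the 3 genes in control myoblasts to 80.6 ± 0.58% in control myotubes (SD, n = 3). Knockout myoblasts already stood at 73.6 ± 1.1% and overexpressor myoblasts at 45.4 ± 2.8%, the latter overlapping the control. The share of Tpm1 took the opposite course, at 46.6 ± 0.45% in control myoblasts, 23.6 ± 0.92% in knockout myoblasts and 16.4 ± 0.64% in control myotubes. Its own level did not follow that course, at 1240 ± 19, 1610 ± 60 and 1220 ± 84 CPM in these groups, so its share fell as Tpm2 grew. Among the myomesins, Myom2 held 59.3 ± 3.5% in control myoblasts and 70.1 ± 0.19% in control myotubes, beside 73.2 ± 2.9% in overexpressor and 52.6 ± 1.9% in knockout myoblasts. Its share in knockout myoblasts was thus below both control values, without overlap, and that of Myom3 was 35.7 ± 1.5% there against 31.1 ± 1.7% in control myoblasts.

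**Figure D5:**
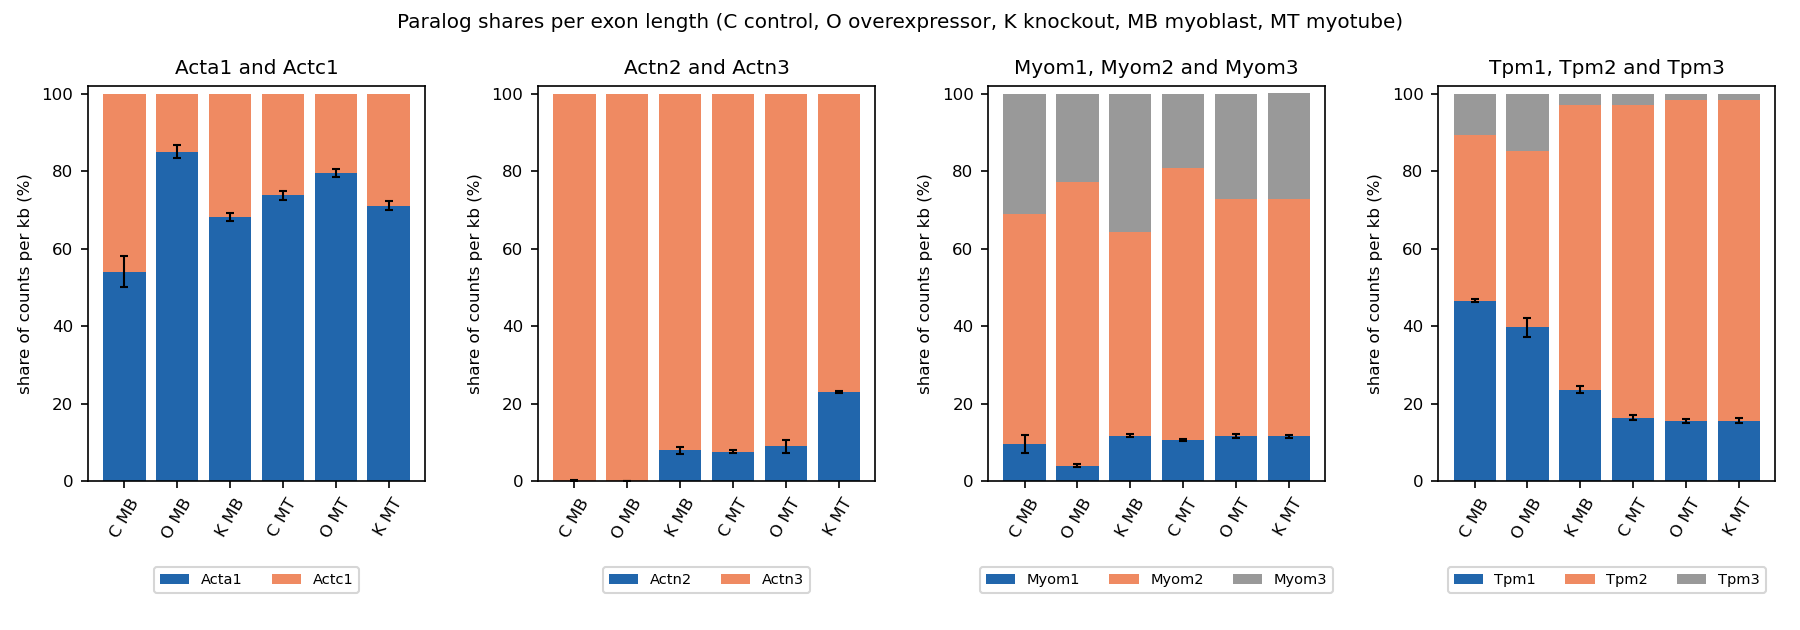
Stacked bars of the mean share of counts per kilobase (percent, n = 3) of each paralog within its family, by line and stage, with error bars of 1 SD for the lowest segment. The Tpm2 segment is 73.6% in knockout myoblasts and 42.8% in control myoblasts, and the Actn2 segment is visible only in knockout myoblasts and in myotubes.

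Other genes of the same machinery were taken from 3 lists. Of 18 motor and regulatory sarcomere genes (myosin heavy and light chains and troponins), 16 rose and none fell in knockout myoblasts (beside 26.4% and 26.6% of all genes), with a median log2 fold change of 5.38 (5.62 without 2 genes whose counts were too low in both groups), from Tnnt1 (2.64 ± 0.11), Tnnt2 (3.23 ± 0.10) and Tnnc1 (4.82 ± 0.20) to Myh7 (6.55 ± 0.22), Myh1 (6.92 ± 0.29) and Myh8 (8.45 ± 0.35). In control myotubes all 18 rose (beside 33.9% of all genes), with a median of 6.38. Of 22 further sarcomere-associated proteins, 19 rose and 2 fell in knockout myoblasts (the same 26.4% and 26.6% over all genes), with a median of 1.16. Hspb7 (6.97 ± 0.22) and Mypn (5.98 ± 0.23) were among those that rose most, and Fhl3 and Fhod3 fell by 0.76 ± 0.09 and 0.57 ± 0.07. In control myotubes 16 rose and 2 fell, beside 33.9% and 28.8% of all genes.

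Paralogs used outside striated muscle made up the third list. Of 20 such genes, 3 rose and 10 fell in knockout myoblasts (15% and 50%, beside 26.4% and 26.6% of all genes), with a median of -0.2. In control myotubes 2 rose and 16 fell (10% and 80%, beside 33.9% and 28.8%), with a median of -1.12 (-1.0 without 1 gene whose counts were too low in both groups). In knockout myoblasts Flna, encoding filamin A, and Actb, encoding beta-actin, fell by 0.97 ± 0.09 and 0.73 ± 0.10. Those that rose were Actg2 (1.87 ± 0.15), Acta2 (0.85 ± 0.09) and Lmod1 (0.35 ± 0.09), genes of smooth muscle thin filaments. In control myotubes the lowest log2 fold changes were those of Actg2 (-3.83 ± 0.17), Csrp1 (-2.29 ± 0.09) and Actg1 (-2.13 ± 0.10), so Actg2 went up in one comparison and down in the other.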

How the data were processed

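The authors deposited raw counts per Ensembl gene for the 18 libraries. Per the submitters' processing notes, the tools included STAR 2.7.9a, featureCounts (Subread 2.0.3) and FastQC 0.11.7, with the build mm10. The use of strand is not given in the sources used here. The deposited variance-stabilised values were not used. Of the 55450 IDs, 55104 matched a symbol in GENCODE (GRCm38).

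Counts were tested with edgeR 4.0.16 (R 4.3.3): TMM factors, filterByExpr by group (17912 genes left), robust quasi-likelihood fit of all 18 libraries with 1 coefficient per group (12 residual degrees of freedom), 12 contrasts, and Benjamini-Hochberg adjustment over all genes tested with a threshold of 0.05. The code was tested on simulated data. CPM use the TMM-scaled library size. A group with 3 counts or fewer in every library was at its floor, 0.0375 to 0.0693 CPM per library, which covers counting error only. Replicates differed by more than counting noise (chi-square per degree of freedom of 4.72 or more), so none was merged. The correlation of same-letter deviations from the group means ran from -0.358 to 0.264. It was not compared with that of different letters, so whether the letters pair the samples is not settled. Per-length shares divide counts by annotated exon length.

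The members and the gene lists were chosen with earlier results of these data known. Values in every library are given for 16 preset members and, in each comparison, for the 3 highest and 3 lowest log2 fold changes, and other genes only from 3 lists (the 3 highest and 3 lowest that passed, of which some are not reported here). Alternatives were DESeq2 1.42.0 (size factors, Wald test), library totals, no filter, only the groups compared, the replicate block and leaving out each library.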

Additional observations from a re-analysis of the deposited data

Results flagged for a closer look

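The responses of the 2 clones to differentiation differed from the control's by the test of the difference itself (edgeR's quasi-likelihood test of the interaction, adjusted over all genes). In the knockout clone 40 of the 42 genes differed in this way, and in the overexpressor clone 24 did. Over all genes tested, the log2 change was above the control's for 20.2% and below it for 29.9% in the knockout. In the overexpressor these shares were 16.6% and 22.3%. For the knockout, the difference in log2 fold change was -6.81 for Ankrd2, -6.21 for Actn2, -5.09 for Ttn and -2.93 for Ankrd1. Ankrd2, Actn2 and Ttn changed by less than in the control, and Ankrd1 fell in the knockout but rose in the control. These genes had all been higher than control as knockout myoblasts. Against control myotubes, Actn2 was higher in the knockout, Ankrd1 and Ankrd2 were lower and Ttn did not pass the test. For Tpm1 and Tmod4 the difference was 1.08 and 3.41, with a larger response than the control. For the overexpressor it was 1.62 for Actc1, 1.71 for Unc45b, 1.65 for Tpm1 and 1.46 for Tpm2, with a larger response than the control, and -4.92 for Xirp2, -1.86 for Csrp3 and -1.68 for Lmod3, with a smaller one. Each line is 1 clone or population, so these differences belong to the lines compared.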

How the results depend on the processing

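Of the 133 log2 fold changes of single genes tried under the alternatives, 119 kept their direction and their side of the threshold in every one. Actc1 in knockout myoblasts against control myotubes, which did not pass the test, ran from -0.02 to 0.14 when 1 library was left out, so its sign is not settled. The number of the 42 genes called stayed within 1.5 times the reported one in all 12 comparisons and under every alternative, and in knockout against control myoblasts it was 37 in each. With a replicate block for the letters, whose meaning is not known, that number was 37 again, and none of the 133 calls changed. The block moved the number called from 40 to 39 for the knockout response and from 24 to 23 for the overexpressor response. Between the clones it moved from 37 to 36 as myoblasts and from 33 to 32 as myotubes. The counts moved most in overexpressor against control differentiation responses (21 to 27) and in knockout myoblasts against control myotubes (28 to 35).

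Scaling by library totals moved the median log2 fold change of all genes from 0.07 to -0.17 in control myotubes against myoblasts, from -0.08 to -0.24 in the knockout, from -0.04 to 0.18 in knockout myoblasts against control myotubes, from -0.04 to 0.11 in overexpressor against control myotubes and from -0.05 to 0.14 in the overexpressor response. Size factors moved it from -0.12 to 0.04 in the knockout response, from -0.07 to 0.06 in knockout and to 0.07 in overexpressor against control myotubes, to 0.06 in the overexpressor response and to 0.04 in knockout myotubes against myoblasts. The share of all calls that were higher went with library totals from 54 to 37.9%, 45.5 to 34%, 46.6 to 62%, 45.8 to 57.8% and 42.7 to 61% in the 5 comparisons in the order given, and with size factors from 40.4 to 52% for the knockout response and from 42.7 to 53.9% for the overexpressor response.

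Under 1 or more alternatives, Ttn in knockout myotubes against myoblasts, Neb and Acta1 in knockout myoblasts against control myotubes, Actn2 and Myom1 in overexpressor myoblasts against control and Actn3 between the clones as myotubes passed the test. Depth limits comparisons among myoblasts for Myoz3, Xirp2 and Mybpc2, which had at most 7 counts in any library there.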
